A study of Oryctolagus cuniculus with 35 samples.

Results

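CIITA, RLA-DMB and HLA-DPA1 are the MHC class II transactivator and 2 genes that it is known to switch on. They are described in rabbit lung with pneumococcal pneumonia and in healthy lung. The members were taken by symbol: these are 3 of the 23669 genes in the deposited tables, listed as ENSOCUG00000006208 (CIITA), ENSOCUG00000026567 (RLA-DMB) and ENSOCUG00000003319 (HLA-DPA1), and all 3 could be tested in every comparison. Lung messenger RNA of 35 New Zealand rabbits was sequenced in 5 groups of 7. The labels list each library as a sample of its own but do not number the rabbits, so the p-values measure the spread between these libraries. The labels give no age or sex.

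In 4 groups the rabbits had pneumococcal pneumonia together with adverse mechanical ventilation. They were given, 4 h after inoculation, ceftaroline with mesenchymal stromal cells (ceftaroline+MSC), ceftaroline alone, the stromal cells alone (MSC), or saline (NaCl). Ceftaroline is a cephalosporin antibiotic and was given into muscle at 20 mg/kg. The stromal cells came from human umbilical cord and were infused into a vein at 3000000 cells/kg, as the dose in the labels is read here, so the MSC groups are rabbits that received cells of another species. The healthy group had neither pneumonia nor ventilation and received NaCl. Lung was taken at autopsy, 24 h after inoculation or directly after death where a rabbit died sooner, so time after infection is not the same in every rabbit.

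Class II molecules present peptides from engulfed material to helper T cells and are carried mainly by dendritic cells, B cells and macrophages. CIITA does not bind DNA itself. It is recruited to class II promoters by a complex of RFX5, RFXAP, RFXANK, NF-Y and CREB1, and its own transcription is induced by interferon gamma through JAK kinases and IRF1. RLA-DMB is the rabbit gene of the beta chain of DM, which helps to load peptide onto class II molecules in the endosome. HLA-DPA1 carries the symbol of the human gene for the alpha chain of DP, one of the molecules that show peptide at the cell surface. These roles are known mainly from human and mouse. Class II genes are a multigene family, so reads of near-identical copies may be divided or lost in counting.

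The depth in recovered reads was 11137017 to 18271138 per library in ceftaroline+MSC, 11499403 to 33209729 in ceftaroline, 9642813 to 11987726 in MSC, 7611988 to 14948358 in NaCl and 7567008 to 12794413 in healthy, so the medians were higher in the groups given ceftaroline (12927861 and 15675806) than in MSC (10577412), NaCl (9527492) and healthy (9731971). The members had 133 to 4557 reads per library (CIITA), 1035 to 47026 (RLA-DMB) and 189 to 3366 (HLA-DPA1). Titles of 3 NaCl, 2 MSC and 5 healthy libraries end in PD or PG, a mark whose meaning is not given, and no title in the groups given ceftaroline does. The ending is PG in the 3 NaCl, the 2 MSC and 1 of the healthy libraries, and PD in the other 4 healthy ones. Titles of healthy replicates 6 and 7, both with an ending, begin with D, the letter of the 7 ceftaroline titles, and repeat the numbers of 2 of them, and the marked NaCl and MSC titles begin with letters that no group uses. Groups follow the labels' group field, and no healthy library was a copy of a ceftaroline library (chi-square over degrees of freedom at least 164.5). The lung markers SFTPB, SLC34A2 and AGER were present in the libraries, while SFTPC and SCGB1A1 were listed at 0 in all 35. Levels below are reads normalized to a common scale over the 35 libraries, and the level of 1 gene is not compared with that of another, because gene length was not used.

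CIITA had its highest mean with the combined treatment. It averaged 1165 ± 331 normalized reads in ceftaroline+MSC, 1024 ± 496 in ceftaroline, 916 ± 553 in MSC, 409 ± 235 in NaCl and 499 ± 84.8 in healthy lungs (SD, n = 7 each). The lowest, median and highest library were 770, 1335 and 1616 in ceftaroline+MSC, 387, 966.5 and 1738 in ceftaroline, 500.5, 704 and 2044 in MSC, 195, 311 and 851 in NaCl, and 326, 504 and 581 in healthy. By their means the groups ran in the order ceftaroline+MSC, ceftaroline, MSC, healthy, NaCl. Each neighbouring pair in that order overlapped, and its means differed by less than the larger SD of the pair. The ceftaroline+MSC libraries all lay above the highest healthy library, and 5 of them above the highest NaCl library. The 2 lowest NaCl libraries, replicates 7 and 5, carry the title ending, as does replicate 6 at 305.

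RLA-DMB had a wider spread, with the order ceftaroline, ceftaroline+MSC, MSC, NaCl, healthy by its means. It averaged 7164 ± 2583 normalized reads in ceftaroline+MSC, 7465 ± 6040 in ceftaroline, 6070 ± 4662 in MSC, 2818 ± 2352 in NaCl and 2564 ± 642 in healthy lungs (SD, n = 7 each). The lowest, median and highest library were 4271, 6919 and 10584 in ceftaroline+MSC, 1117, 5500 and 18349 in ceftaroline, 2548, 4348 and 16045 in MSC, 1354, 2216 and 8071 in NaCl, and 1446, 2587 and 3546 in healthy. Ceftaroline held both the highest library of all (replicate 4) and the lowest (replicate 6). One NaCl lung, replicate 1, stood far above the other 6 of its group, and it was also the highest NaCl lung for CIITA. Neighbours in the order overlapped and differed by less than the larger SD. All 7 ceftaroline+MSC libraries were above every healthy library, and 3 of them were above every NaCl library.

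HLA-DPA1 had a narrower range, in the order ceftaroline+MSC, ceftaroline, healthy, MSC, NaCl by its means. It averaged 783 ± 218 normalized reads in ceftaroline+MSC, 710 ± 329 in ceftaroline, 573 ± 152 in MSC, 415 ± 68.7 in NaCl and 598 ± 169 in healthy lungs (SD, n = 7 each). The lowest, median and highest library were 514, 754 and 1169 in ceftaroline+MSC, 278, 792 and 1284 in ceftaroline, 365, 598 and 765.5 in MSC, 334, 414 and 504 in NaCl, and 314.5, 598 and 834 in healthy. The 7 ceftaroline+MSC lungs were separated from the 7 NaCl lungs with no overlap, whereas they overlapped with the healthy lungs. Healthy and MSC lungs overlapped broadly. Neighbouring means differed by less than the larger SD of the pair, except MSC and NaCl, whose means differed by slightly more than the MSC SD.

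**Figure D1:**
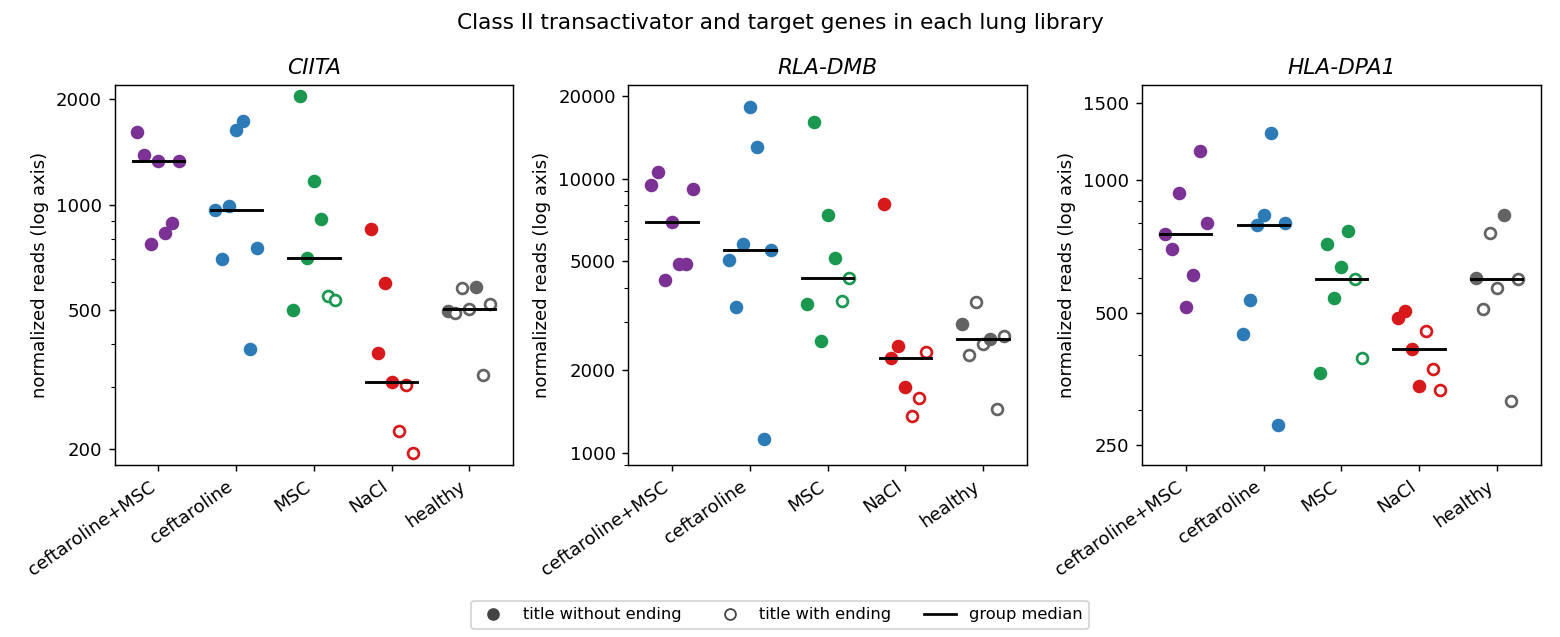
Normalized reads of CIITA, RLA-DMB and HLA-DPA1 on the common scale (log axis) in each of 35 lung libraries, by group, with 7 points per group and a line at the group median. Open points mark libraries whose title carries an ending; for HLA-DPA1 the 7 ceftaroline+MSC libraries (514 to 1169) all lie above the 7 NaCl libraries (334 to 504).

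Combined treatment against NaCl asked how far antibiotic and cells together moved these genes in the injured lung. All 3 members rose. CIITA was 3.11-fold higher in ceftaroline+MSC than in NaCl lungs, or 1.64 on the log2 scale (SE 0.32, 95% interval 0.98 to 2.29, adjusted p = 0.000707 by limma). RLA-DMB stood at 1.53 (SE 0.44, adjusted p = 0.0091) and HLA-DPA1 at 0.88 (SE 0.24, adjusted p = 0.00737), both by limma with Benjamini-Hochberg adjustment over 10276 genes. For each member all 7 ceftaroline+MSC lungs were above the NaCl mean. Of all tested genes 15.6% were called higher in the comparison. The members were chosen with earlier results of these data known, so their 3 of 3 cannot be weighed against that share. Every ceftaroline+MSC library lay above every NaCl library, as for HLA-DPA1, for 2.56% of genes. Each of the 3 stayed past the threshold when any 1 of the 14 libraries was left out. Without the libraries that carry a title ending, CIITA stood at 1.18 (adjusted p = 0.0253 by limma), HLA-DPA1 at 0.81 (adjusted p = 0.0481) and RLA-DMB at 1.20 (adjusted p = 0.123), so the RLA-DMB call was lost. This set of ceftaroline+MSC and NaCl libraries stands in no single deposited table, so the fit used the common scale over 5 groups.

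Against the same NaCl lungs the single treatments gave estimates in the same direction that did not pass the threshold. With ceftaroline alone the log2 fold changes were 1.37 for CIITA (SE 0.37, adjusted p = 0.134), 1.25 for RLA-DMB (SE 0.54, adjusted p = 0.241) and 0.67 for HLA-DPA1 (SE 0.27, adjusted p = 0.225), by limma. CIITA lay above the NaCl mean in 6 of 7 ceftaroline lungs, RLA-DMB in 6 and HLA-DPA1 in 6. With MSC alone they were 1.18 for CIITA (SE 0.37, adjusted p = 0.177), 1.13 for RLA-DMB (SE 0.43, adjusted p = 0.208) and 0.45 for HLA-DPA1 (SE 0.18, adjusted p = 0.23), by limma. CIITA lay above the NaCl mean in 7 of 7 MSC lungs, RLA-DMB in 6 and HLA-DPA1 in 5. The background was 0% in both comparisons: limma called 0 of 9614 genes with ceftaroline (1760, or 18.3%, at an unadjusted p under 0.05) and 0 of 9446 with MSC (1672, or 17.7%). All 3 members were among those genes in both comparisons, with unadjusted limma p of 0.00227 to 0.0356 for ceftaroline and 0.00624 to 0.026 for MSC. The 3 comparisons share the NaCl libraries, so their agreement in direction is not independent.

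For CIITA with ceftaroline the call depended on the tool and on the libraries in the fit. The authors' deposited table gives CIITA a log2 fold change of 1.35 with an adjusted p of 0.0222, in a comparison where the authors' deposited table calls 4.69% of genes. DESeq2 on the recovered reads gave 1.35 (adjusted p = 0.0201), and limma over all 35 libraries gave 1.35 (adjusted p = 0.0303). Without NaCl replicate 1, limma called CIITA too, at 1.58 (adjusted p = 0.0405), and 189 genes in all. Without the NaCl libraries with an ending the estimate was 0.91 (adjusted p = 0.284). With MSC, the authors' deposited table gives CIITA 1.18 with an adjusted p of 0.0682, in a comparison where it calls 3.33% of genes, and limma over all 35 libraries gave 1.16 (adjusted p = 0.0439).

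Adding MSC to ceftaroline moved none of the members past the threshold. Ceftaroline+MSC differed from ceftaroline by 0.28 on the log2 scale for CIITA (95% interval -0.36 to 0.93, adjusted p = 0.644), by 0.30 for RLA-DMB (-0.76 to 1.36, adjusted p = 0.766) and by 0.23 for HLA-DPA1 (-0.39 to 0.86, adjusted p = 0.687), by limma, where 0.0403% of 9924 genes were called. Each interval holds no change, and at its upper end a rise of at least 0.86. The sign for RLA-DMB turned to -0.06 with edgeR and DESeq2 on recovered reads, and to -0.08 without ceftaroline replicate 6, the lowest lung. The SD of RLA-DMB was 36.05% of the mean in ceftaroline+MSC, 80.9% in ceftaroline, 76.8% in MSC, 83.45% in NaCl and 25.03% in healthy, so it was wide in 3 of the 4 pneumonia groups. The MSC effect in the presence of ceftaroline minus that in its absence was -0.87 for CIITA (SE 0.45, adjusted p = 0.862), -0.81 for RLA-DMB (SE 0.62, adjusted p = 0.916) and -0.20 for HLA-DPA1 (SE 0.35, adjusted p = 0.979), by limma. In that test 0.00973% of 10276 genes were called.

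**Figure D2:**
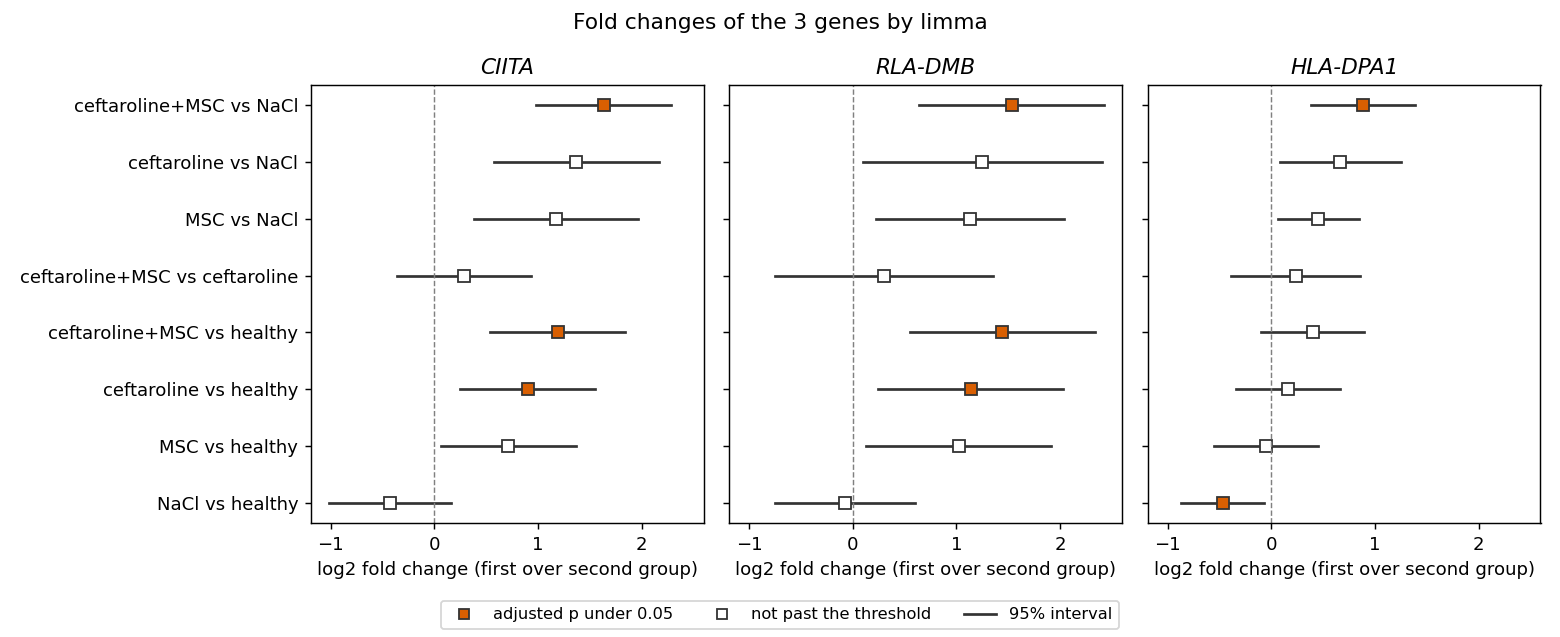
Log2 fold change (first over second group) of CIITA, RLA-DMB and HLA-DPA1 in 8 comparisons, with the 95% interval from limma. Filled squares passed an adjusted p of 0.05: all 3 genes for ceftaroline+MSC against NaCl, CIITA and RLA-DMB for ceftaroline+MSC and for ceftaroline against healthy, and HLA-DPA1 (-0.47) for NaCl against healthy.

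NaCl against healthy lung asked what pneumonia with ventilation does without therapy. HLA-DPA1 fell, with a log2 value of -0.47 for NaCl over healthy (SE 0.19, adjusted p = 0.0423 by limma), with 7 of 7 NaCl lungs below the healthy mean. This is 1 of 3 members called lower, where 30.9% of 9545 tested genes were called lower. CIITA stood at -0.43 (95% interval -1.02 to 0.16, adjusted p = 0.192) and RLA-DMB at -0.07 (-0.75 to 0.60, adjusted p = 0.85), by limma. The authors' deposited table gives HLA-DPA1 -0.51 with an adjusted p of 0.0217, where 53.4% of its genes are called. The HLA-DPA1 call was close to its threshold: it held in 5 of 14 refits that left out 1 library, with adjusted p from 0.00279 to 0.0929 by limma. It was past the threshold without NaCl replicate 2, which carries a mark (S00) in its description that is otherwise found on the healthy libraries.

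The title ending moved with the CIITA result. Among libraries with an ending (3 NaCl and 5 healthy) CIITA was lower in NaCl by a log2 fold change of -0.98 (adjusted p = 0.00362 by limma), and among those without (4 NaCl and 2 healthy) it stood at -0.11 (adjusted p = 0.85). With the ending as a covariate it was -0.61 (adjusted p = 0.0422 by limma), and without NaCl replicate 1 it was -0.64 (adjusted p = 0.0248). HLA-DPA1 stood at -0.44 with an ending (adjusted p = 0.166) and at -0.70 without (adjusted p = 0.0606), by limma. RLA-DMB changed sign between the sets and was 0.11 without an ending. The 3 marked NaCl titles all end in PG and 4 of the 5 marked healthy ones in PD, so the ending itself differs between these groups, and neither the set nor the covariate holds it constant. What the ending stands for, and its part in these values, was not tested. Without healthy replicates 6 and 7 the log2 fold changes were -0.53 for CIITA (adjusted p = 0.163), -0.21 for RLA-DMB (adjusted p = 0.631) and -0.63 for HLA-DPA1 (adjusted p = 0.00527), by limma.

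Against healthy lung, CIITA and RLA-DMB rose in both groups given ceftaroline, while HLA-DPA1 passed the threshold in no treated group. In ceftaroline+MSC the log2 fold change was 1.19 for CIITA (SE 0.32, adjusted p = 0.00603) and 1.44 for RLA-DMB (SE 0.44, adjusted p = 0.0128) by limma, where 18.6% of genes were called higher. All 7 lungs lay above all 7 healthy lungs for both genes, as was so for 4.87% of genes. In ceftaroline it was 0.90 for CIITA (SE 0.32, adjusted p = 0.0181) and 1.14 for RLA-DMB (SE 0.44, adjusted p = 0.0286) by limma, where 27.9% were called higher. In MSC the values were 0.71 (adjusted p = 0.0614) for CIITA and 1.02 (adjusted p = 0.0514) for RLA-DMB by limma, where 26.1% of genes were called higher. HLA-DPA1 stood at 0.40 in ceftaroline+MSC (adjusted p = 0.205), at 0.16 in ceftaroline (adjusted p = 0.598) and at -0.05 in MSC (adjusted p = 0.869), by limma. With the 2 healthy libraries that have no title ending as the only comparison, the 4 calls were lost at similar estimates, 1.06 and 0.78 for CIITA and 1.29 and 0.98 for RLA-DMB with ceftaroline+MSC and with ceftaroline. The ceftaroline calls were also lost without ceftaroline replicate 4 (0.76 for CIITA, adjusted p = 0.0516, and 0.85 for RLA-DMB, adjusted p = 0.096, by limma) and without replicate 5 (0.75, adjusted p = 0.0525, and 0.93, adjusted p = 0.0781). These are the 2 most deeply sequenced libraries, with 33209729 and 27452557 reads. RLA-DMB with ceftaroline also lost its call without healthy replicate 6, at 1.01 (adjusted p = 0.063 by limma). Without healthy replicates 6 and 7, whose titles carry the ceftaroline letter, the ceftaroline+MSC calls held (1.09 for CIITA, adjusted p = 0.0254, and 1.31 for RLA-DMB, adjusted p = 0.0471, by limma) and the ceftaroline calls were lost (0.80, adjusted p = 0.0621, and 1.00, adjusted p = 0.0876).

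Across the 28 pneumonia lungs CIITA and RLA-DMB varied together beyond the groups. After the group means were removed, Pearson's r was 0.885 and Spearman's rho 0.851, each with a permutation p of 1.0e-05, the smallest that 100000 draws can give, and 3.0e-05 adjusted over the 3 pairs of members. It was 0.923 without the 2 libraries farthest from the CIITA median and 0.937 in the 23 libraries without a title ending. Within each of the 5 groups of 7 it lay between 0.788 (NaCl) and 0.973 (ceftaroline). The lungs at the ends were the same for both genes: MSC replicate 2, NaCl replicate 1 and ceftaroline replicates 4 and 5 were high, and ceftaroline replicate 6 was low.

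HLA-DPA1 had lower correlations with the other members. With CIITA, r was 0.548 and rho 0.479 (permutation p adjusted over the 3 pairs 0.00637 and 0.0214), and with RLA-DMB they were 0.579 and 0.445 (0.00833 and 0.0305). Without the 2 libraries farthest from the RLA-DMB median, r with RLA-DMB was 0.390 (permutation p = 0.0554) and rho 0.331 (permutation p = 0.121), so those libraries decided whether that relation passed the threshold. It was 0.614 in the 23 libraries without a title ending (permutation p = 0.0087). In ceftaroline+MSC the signs were opposite, at -0.402 with CIITA and -0.329 with RLA-DMB, whereas in each of the other 4 groups both were positive, from 0.407 to 0.971. Whether that group differs was not tested. In ceftaroline+MSC the lungs highest for HLA-DPA1, replicates 6 and 3, were among the lower ones for CIITA.

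**Figure D3:**
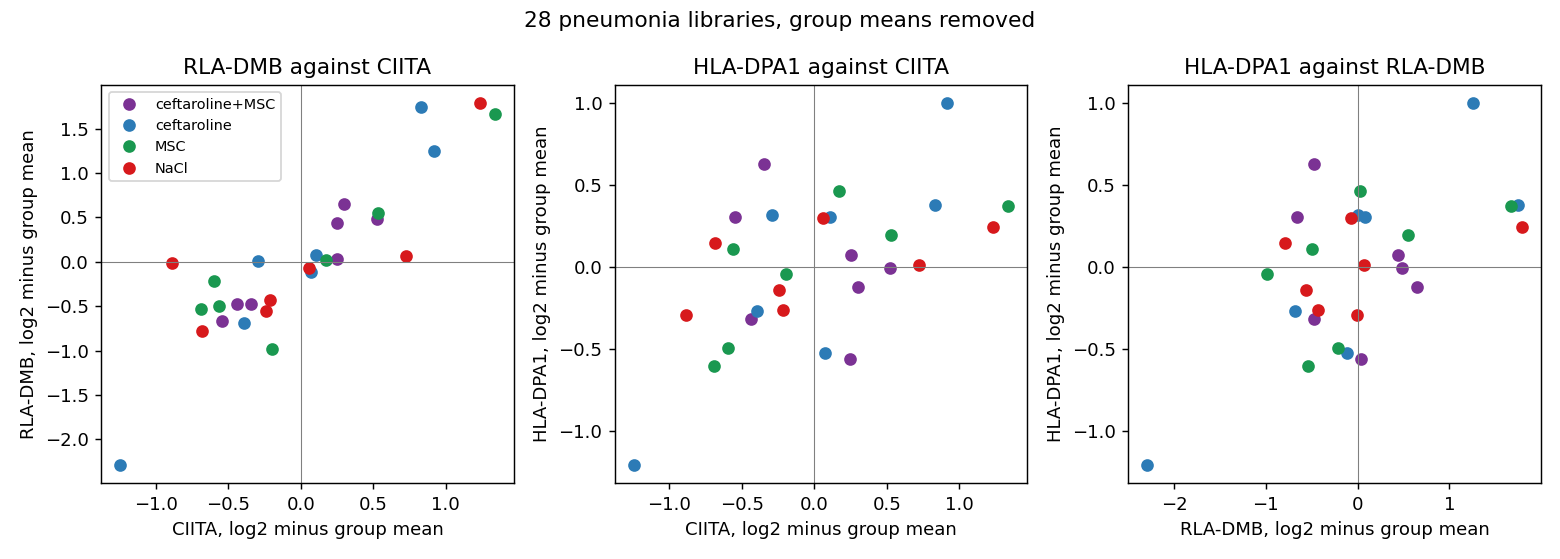
Log2 normalized reads minus the group mean for the 3 pairs of members, 1 point per pneumonia library (n = 28), coloured by group. RLA-DMB follows CIITA along a line (r = 0.885), while HLA-DPA1 is more scattered against CIITA (0.548) and RLA-DMB (0.579).

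Over all 35 libraries, the 6638 named genes that averaged 50 normalized reads or more were ranked by Pearson's r with each member, as a description. All points share the 35 libraries, so differences between groups and in tissue makeup enter every r. The gene most like CIITA was RLA-DMB (r = 0.919), followed by RMI2, a subunit of the complex that dissolves double Holliday junctions (0.900), HNMT, which methylates histamine (0.890), H6PD, a glucose-6-phosphate dehydrogenase of the endoplasmic reticulum (0.871), and TIMELESS, a replication fork protein (0.870). In the RefSeq table of assembly mOryCun1.1, RMI2 lies near CIITA with 6 genes between them. SOCS1, CLEC16A and DEXI are among these. The gene most like RLA-DMB was CIITA, then HLA-DMA, the alpha chain that pairs with it in DM (0.913), H6PD (0.900), HNMT (0.896) and RMI2 (0.887). RLA-DMA and PSMB9 adjoin RLA-DMB in the same RefSeq table. HLA-DPA1 was nearest to RLA-DR-ALPHA, the alpha chain of DR (0.806), HLA-DMA (0.792), EDEM2, which takes part in the disposal of misfolded glycoproteins (0.743), GRAMD1B, a cholesterol transporter (0.736), and CD180, a Toll-like receptor relative of B cells (0.732). CIITA ranked 14th and RLA-DMB 20th for HLA-DPA1, while HLA-DPA1 ranked 156th for CIITA.

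The class II chains and their loading factors were followed as a list. Its 30 symbols found 7 rows, all tested: RLA-DMB, HLA-DMA, HLA-DPA1, HLA-DPB1, RLA-DR-ALPHA, HLA-DOB and CD74. Chain genes of DQ and the beta chain of DR were not analysed here. In ceftaroline+MSC against NaCl 4 of 7 rose and none fell, where 15.6% of all tested genes rose and 15.3% fell, with a median log2 fold change of 0.74 against 0.01 over all tested genes. HLA-DMA rose by 1.55 on the log2 scale (adjusted p = 0.00737) and RLA-DR-ALPHA by 0.74 (adjusted p = 0.0291), beside the 2 members, by limma. HLA-DMA averaged 3345 ± 896 normalized reads in ceftaroline+MSC and 1308 ± 958 in NaCl lungs (SD, n = 7 each). HLA-DPB1, the beta chain of DP, stood at 0.63 (adjusted p = 0.0746), HLA-DOB, a chain of the DM inhibitor DO, at 0.54 (adjusted p = 0.212) and CD74, the invariant chain that occupies the groove before peptide, at 0.11 (adjusted p = 0.768), by limma. CD74 had 46319 to 73437 normalized reads in ceftaroline+MSC and 26279 to 87655 in NaCl lungs, so its groups overlapped throughout.

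With ceftaroline alone 7 of 7 chain genes and with MSC alone 5 of 7 had a fold change above 0 against NaCl, where 51.87% and 51.08% of all tested genes did, and none passed. In NaCl against healthy lung 2 of 7 fell and none rose, a share of falls near the 30.9% of all tested genes, while 29.7% of these rose. These were HLA-DPA1 and HLA-DMA, at -0.80 (adjusted p = 0.0439 by limma), while RLA-DMB, which encodes the partner chain of HLA-DMA, stood at -0.07. In ceftaroline+MSC against healthy, RLA-DMB was the 1 of 7 that rose, where 18.6% of all tested genes did.

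**Figure D4:**
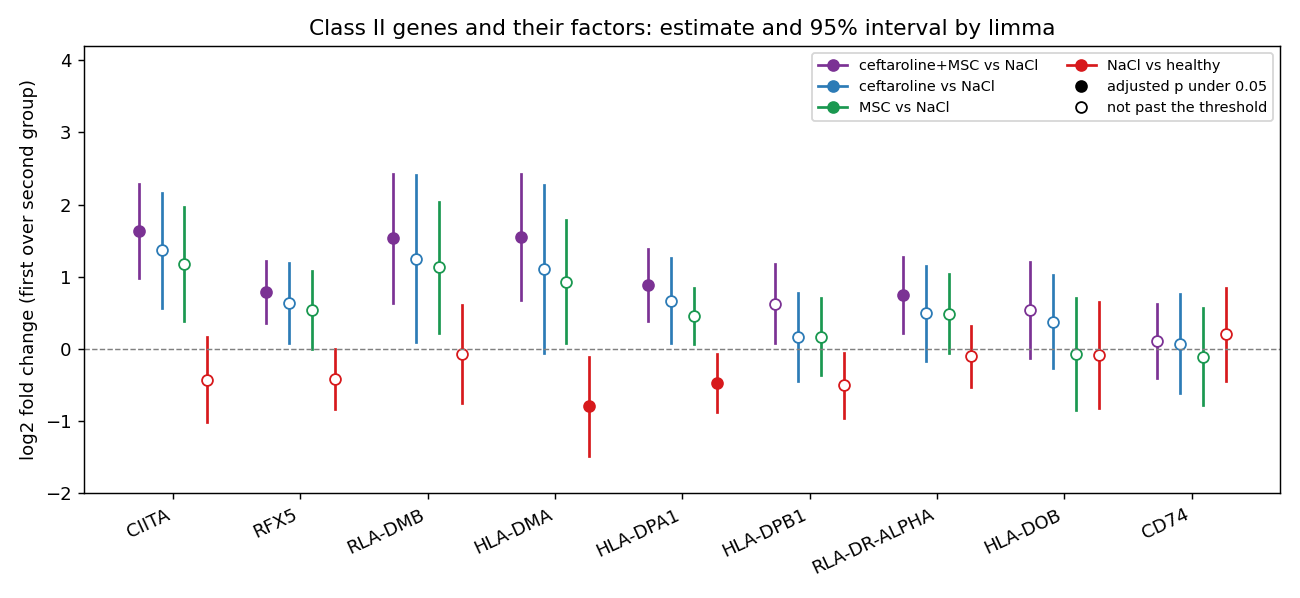
Log2 fold change with the 95% interval from limma for CIITA, RFX5 and the 7 class II chain and loading genes, for ceftaroline+MSC, ceftaroline and MSC against NaCl and for NaCl against healthy. Filled points passed an adjusted p of 0.05; CIITA, RFX5, RLA-DMB, HLA-DMA, HLA-DPA1 and RLA-DR-ALPHA did so for ceftaroline+MSC against NaCl, and CD74 lay near 0 in all 4.

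Of CIITA and the factors that recruit it, 6 were tested. In ceftaroline+MSC against NaCl 2 rose and 1 fell, where 15.6% of all tested genes rose and 15.3% fell. The 2 were RFX5 and CIITA itself, a member whose rise is given above, so among the other factors only RFX5 rose. RFX5, the DNA-binding subunit of RFX, rose by 0.79 (adjusted p = 0.00566 by limma), with 598 to 993 normalized reads in ceftaroline+MSC and 260 to 652 in NaCl lungs. CREB1, which binds the X2 box, had a log2 fold change of -0.73 (adjusted p = 0.0373 by limma). The NF-Y subunits NFYA, NFYB and NFYC lay between -0.30 and -0.24 with adjusted p of 0.145 to 0.514 by limma. RFXAP was listed at 0 in all 35 libraries, as were 10217 genes in all. In NaCl against healthy 1 of 6 rose and 1 fell, where 29.7% of all tested genes rose and 30.9% fell. CREB1 rose by 1.73 (adjusted p = 1e-05) and NFYB stood at -0.65 (adjusted p = 0.00713), by limma. Of 4 tested genes of the class II compartment, none passed in ceftaroline+MSC against NaCl. CTSB, a cathepsin of lysosomes, was the 1 of 4 that rose in NaCl against healthy (1.18, adjusted p = 0.0128 by limma), beside 29.7% of all tested genes. In ceftaroline+MSC against healthy 2 of 4 rose, beside 18.6% of all tested genes. They were CTSB (1.05, adjusted p = 0.0265) and CTSS, the cathepsin that trims CD74 (1.25, adjusted p = 0.0206), by limma.

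The interferon gamma list holds the ligand, its receptor, kinases and transcription factors, which act upstream of CIITA. It also holds genes that interferon induces beside CIITA, among them CXCL9, CXCL10 and GBP1. In NaCl against healthy 9 of 10 tested genes rose, where 29.7% of all genes did, while CIITA did not. They included the kinase JAK2 by 2.41 (adjusted p = 5e-07), the transcription factor IRF1 by 2.74 (adjusted p = 0.000141), the induced GTPase GBP1 by 4.52 (adjusted p = 0.000101) and the chemokine CXCL10 by 3.99 (adjusted p = 0.000286), by limma. In ceftaroline+MSC against NaCl 1 of 11 rose and 2 fell, beside 15.6% and 15.3% of all tested genes. CXCL9, a chemokine induced by interferon gamma, rose by 2.99 (adjusted p = 0.032), and the receptor chain IFNGR1 (-0.95, adjusted p = 0.00977) and the kinase JAK1 (-0.66, adjusted p = 0.00521) fell, by limma. IRF1 stood at -0.27 (adjusted p = 0.792 by limma). IFNG, the ligand itself, had a lowest, median and highest value of 0, 87.1 and 558 normalized reads in ceftaroline+MSC, 4.33, 154 and 440 in ceftaroline, 0.943, 50.2 and 453.5 in MSC, 0, 22.1 and 187 in NaCl and 0, 0 and 2.24 in healthy. In the 4 pneumonia groups IFNG spread widely and the groups overlapped, and it was not past the threshold in ceftaroline+MSC against NaCl (1.36, adjusted p = 0.459 by limma). IFNG was not among the genes tested in NaCl against healthy. Against healthy lung, 10 of 11 list genes rose in ceftaroline and 8 of 11 in ceftaroline+MSC, beside 27.9% and 18.6% of all tested genes. IFNG (6.09 and 4.61) and CIITA were called higher in both of these groups. In MSC 9 of 11 rose, beside 26.1% of all tested genes. There IFNG was called (4.59, adjusted p = 0.00537) and CIITA was not (0.715, adjusted p = 0.0614), by limma. IFNG had at most 3 reads in any healthy library, so it passed the filter for this fit only through the pneumonia groups. Its calls against healthy are not independent of that filter, and their size depends on the 1 added before the log2. How the list bears on CIITA was not tested.

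Genes known to restrain CIITA or class II expression were higher in untreated pneumonia and mostly lower with the combined treatment. In NaCl against healthy 4 of 4 tested rose, where 29.7% of all genes did. They were IL10, a cytokine that restrains inflammation (4.12, adjusted p = 4.5e-05), EZH2, a histone methyltransferase (1.84, adjusted p = 2.5e-05), the transcriptional repressor BCL6 (1.28, adjusted p = 4e-06) and PRDM1, the repressor of CIITA in plasma cells (0.69, adjusted p = 0.02), by limma. In ceftaroline+MSC against NaCl 3 of 4 fell, where 15.3% of all genes did: IL10 at -2.20 (adjusted p = 0.0307), EZH2 at -0.89 (adjusted p = 0.00926) and BCL6 at -0.73 (adjusted p = 0.0324), by limma. PRDM1 stood at -0.16 (adjusted p = 0.698 by limma). Against healthy lung, 4 of 4 rose in ceftaroline and 2 of 4 in ceftaroline+MSC, beside 27.9% and 18.6% of all tested genes. CIITA was also called higher in both of these groups. In MSC 3 of 4 rose, beside 26.1% of all tested genes, and CIITA was not called there (0.715, adjusted p = 0.0614 by limma). Whether the restraining genes bear on CIITA was not tested.

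Class I presentation is driven by NLRC5, a relative of CIITA. In NaCl against healthy 5 of 10 tested genes rose, where 29.7% of all genes did, led by the peptide transporter TAP1 at 2.37 (adjusted p = 0.000333), with B2M, the light chain of class I, at 1.00 (adjusted p = 0.00901) and NLRC5 at 1.26 (adjusted p = 0.0705), by limma. In ceftaroline+MSC against NaCl none of 10 passed, where 15.6% of all tested genes rose and 15.3% fell. There NLRC5 stood at 0.97 (adjusted p = 0.236) and TAP1 at 0.04 (adjusted p = 0.965), by limma. Whether class I and class II genes differ in these changes was not tested. A costimulation list had 5 tested genes: CD80, CD86, CD83, the inhibitory ligand CD274 and the chemokine receptor CCR7. In NaCl against healthy 5 of 5 rose, against the same 29.7%, with the largest rise for CD274 (2.855, adjusted p = 0.000144 by limma). In ceftaroline+MSC against NaCl 1 of 5 fell, beside the same 15.3%. It was CD83, a surface marker of mature dendritic cells (-1.17, adjusted p = 0.0297 by limma).

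Markers of the cells that carry class II were set beside these values. In bulk lung, fewer cells of a type and less RNA per cell cannot be told apart. In ceftaroline+MSC against NaCl the marker counts stand beside 15.6% of all tested genes that rose and 15.3% that fell. Of 6 tested dendritic cell markers none passed in ceftaroline+MSC against NaCl, their summed level was 8541 to 33269 normalized reads in ceftaroline+MSC and 19932 to 59055 in NaCl, and FLT3, ZBTB46, IRF4 and ITGAX were listed at 0 in all libraries. That sum was mostly CD1D, which averaged 21544 normalized reads in ceftaroline+MSC and 33565 in NaCl. Of 6 tested B cell markers 1 fell, the kinase BLK (-0.44, adjusted p = 0.0206 by limma), with sums of 1236 to 2084 in ceftaroline+MSC and 1032 to 2828 in NaCl and with CD22 and FCER2 listed at 0. Of 12 macrophage markers 3 rose and 1 fell. C1QA (1.20, adjusted p = 0.0177) and C1QC (1.28, adjusted p = 0.0293), subunits of complement C1q, and the sialic acid receptor SIGLEC1 (1.57, adjusted p = 0.0108) rose and FABP4, a fatty acid carrier, fell (-1.28, adjusted p = 0.033), by limma. The macrophage sums were 8440 to 31698 in ceftaroline+MSC and 7929 to 39588 in NaCl. Of 8 neutrophil markers 7 fell, and their sums were 17158 to 556184 in ceftaroline+MSC and 179223 to 1651851 in NaCl. CSF3R, MMP9 and FPR1 were listed at 0. The part of any of these cell types in the rise of the members was not tested.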

How the data were processed

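Per the labels' protocols, the 35 rabbit lung libraries were stranded and read from a single end, with bcl2fastq2 2.18.12 for demultiplexing and Cutadapt 1.15 for adapters. TopHat2 2.1.1, featureCounts 1.5.2 and DESeq2 1.24.0 are named in the submitters' processing notes without a role. For build, annotation and strand setting: not given in the sources used here. Deposited by the authors were 4 tables, 1 per comparison, each with p-values, a test statistic (a score), a log2 fold change and its log2 standard error, per the file headers. Beside them stands the deposited signal of 14 libraries, reads per gene divided by a size factor, which sums to a different scale in each table. Of these values 100% were whole multiples of 1 read (relative tolerance 1e-06), so whole reads were recovered.

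Within each table log2(value + 1) was fitted by limma 3.58.1 with an intensity trend (R 4.3.3), two-sided, for genes with at least 10 normalized reads in at least 7 libraries. Comparisons across tables used a 5-group limma fit on median-of-ratios size factors over 35 libraries (9765 genes). Calls needed a Benjamini-Hochberg adjusted p under 0.05 over all genes tested. Fold changes are on the log2(value + 1) scale. edgeR 4.0.16, DESeq2 1.42.0 (on recovered reads), other pseudocounts, filters, scalings and left-out libraries were alternatives. The fits were tested on simulated data. Correlations used 100000 permutations within groups. The groups come from the labels and replicates are numbered in accession order. No library was a copy of another in its group (chi-square over degrees of freedom at least 39.4). Each library is a sample of its own in the labels.

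The members and gene lists were chosen with earlier results of these data known. Named are the 3 members, list genes past the threshold in a comparison described (or the lowest p where fewer passed) and the 5 genes most correlated with each member. Other list genes named are given with their values and were chosen after these were seen. Not every gene this rule picks is reported here. No sequences are shown. CIITA and RLA-DMB were matched by symbol in the RefSeq table of mOryCun1.1, and HLA-DPA1 was not.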

Additional observations from a re-analysis of the deposited data

Results flagged for a closer look

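Of 15 sets of 7 libraries (3 genes in 5 groups), 3 had a library that stood apart by Dixon's test at the 95% level. The test was run on normalized reads, not on the log2 scale. A chance rate of about 1 in 20 holds for normally spread values in independent sets. These values were skewed and the genes varied together, so that rate is only a rough guide. RLA-DMB reached 16045 normalized reads in MSC replicate 2, against 2548 to 7366 in the other 6 MSC lungs. This lung was also the highest MSC lung for CIITA (2044), and without it the RLA-DMB estimate for MSC against NaCl was 0.85 in place of 1.13 on the log2 scale. RLA-DMB reached 8071 in NaCl replicate 1, against 1354 to 2447 in the other 6 NaCl lungs, and this lung was the highest NaCl lung for CIITA too (851). CIITA was lowest in healthy replicate 6, at 326 normalized reads against 491 to 581 in the other 6. That lung was the lowest healthy lung for RLA-DMB (1446) and HLA-DPA1 (314.5) as well, and is the 1 healthy library whose title ends in PG, and 1 of 2 whose title begins with the letter of the ceftaroline titles.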

How the results depend on the processing

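For ceftaroline+MSC against NaCl, CIITA (1.49 to 1.84), RLA-DMB (1.40 to 1.83) and HLA-DPA1 (0.78 to 0.98) kept direction and call in all refits without 1 library, with TMM and with edgeR. The RLA-DMB call was lost without title endings (1.20, adjusted p = 0.123 by limma). Reversed signs, all of uncalled values, were those of RLA-DMB in NaCl against healthy (0.12 with edgeR, 0.15 with DESeq2, 0.11 without endings, -0.37 to 0.053 without 1 library) and in ceftaroline+MSC against ceftaroline (-0.061 with edgeR, -0.060 with DESeq2, -0.081 to 0.59 without 1 library), and of HLA-DPA1 in ceftaroline against healthy (-0.14 without endings, -0.003 without healthy replicates 6 and 7, -0.007 to 0.36) and in MSC against healthy (-0.20 to 0.049). The correlations of HLA-DPA1 reversed within ceftaroline+MSC (-0.402 with CIITA and -0.329 with RLA-DMB), and without the 2 farthest libraries that with RLA-DMB was 0.390. The causes were not tested.

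Other calls that moved were as follows, by limma unless a tool is named. In NaCl against healthy CIITA passed with endings (-0.98) and with the ending as a covariate (-0.61) and ranged from -0.64 to -0.28 without 1 library, while HLA-DPA1 did not pass with endings (-0.44), without (-0.70) or in the 35-library fit (-0.49), and ranged from -0.61 to -0.38. Against NaCl, CIITA passed in the 35-library fit with MSC (1.16) and with ceftaroline (1.35), and with DESeq2 for ceftaroline (1.35), with 1.21 to 1.58 without 1 library. Against healthy, MSC passed for CIITA with edgeR (0.88, range without 1 library 0.49 to 0.83) and for RLA-DMB with TMM (1.04) and edgeR (1.241, range 0.74 to 1.19). Without endings the calls against healthy were lost for CIITA with ceftaroline (0.78, range without 1 library 0.75 to 1.11) and ceftaroline+MSC (1.06), and for RLA-DMB with ceftaroline (0.98, range 0.85 to 1.52) and ceftaroline+MSC (1.29). Without healthy replicates 6 and 7, a set chosen after seeing the data, the ceftaroline calls against healthy were lost (0.80 for CIITA and 1.00 for RLA-DMB).

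Counts of called genes moved by over 1.5 times as follows. NaCl against healthy had 5788, and 3650 without endings. MSC against NaCl had 0, and 1 without a filter, 335 with DESeq2, 7 without endings, 270 in the 35-library fit and 0 to 3 without 1 library. Ceftaroline against NaCl had 0, and 519 with DESeq2, 320 in the 35-library fit and 0 to 189 without 1 library. Ceftaroline+MSC against ceftaroline had 4, and 8 with a filter on all libraries, 8 with TMM, 11 with edgeR, 99 with DESeq2, 8 in the 35-library fit and 2 to 14 without 1 library. Without endings, MSC, ceftaroline and ceftaroline+MSC against healthy had 3003, 3028 and 968 in place of 5235, 5686 and 3536. The difference between MSC effects had 1, and 2 with edgeR, 40 without endings and 1 to 11 without 1 library.

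Same-numbered libraries showed no clear pairing in 7 pairs of ceftaroline+MSC and ceftaroline, where the correlations of their deviations were -0.385 to 0.484. The correlations were -0.15 to 0.174 in 4 pairs of ceftaroline and NaCl, and 0.001 to 0.268 in 3 pairs of MSC and NaCl. The libraries of the first-named group that correlated best with their own number were 0 of 7, 2 of 4 and 2 of 3. Sets of 4 and 3 pairs are too small to show whether libraries pair. A replicate block left 0 calls in ceftaroline+MSC against ceftaroline. The members had at least 133 reads in each library. Limits are the 7 rabbits per group, the unexplained title endings, which fall on no library given ceftaroline, and bulk tissue.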
